A study of Mus musculus with 12 samples.

Results

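The histone genes of mouse ileal enteroids were followed under butyrate and IL-13. They were taken by symbol: every gene of the deposited count table beginning with Hist1h, Hist2h, Hist3h, Hist4h or H2af, together with H1f0, H1fx, H3f3a and H3f3b. This gave 70 genes of 18068 in the table. The 60 cluster genes comprise 5 of the linker histone H1, 15 of H2A, 16 of H2B, 12 of H3 and 12 of H4; 47 lie in the Hist1 locus on chromosome 13, and Hist2, Hist3 and Hist4 hold 10, 2 and 1. The other 10 are variant genes scattered over the genome. The symbols decided membership among the genes of the table. The table itself had been limited by a measured value, the corrected p for untreated against IL-13, which had to be below 1.

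Enteroids are cultures of gut epithelium, here grown from the ileum of C57Bl/6 wild-type mice, and RNA was sequenced by a directional poly(A) protocol. There were 4 groups of 3 libraries: untreated, butyrate (1 mM for 48 h), IL-13 (20 ng/mL for 72 h), and both agents together. Butyrate is a bacterial short-chain fatty acid that inhibits histone deacetylases, and IL-13 is a type 2 cytokine that signals through STAT6. The sources used here give neither the order of the agents nor whether replicates were separate cultures or animals, so each p-value reflects the spread among these libraries, which may be technical.

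Cluster histone genes are read mainly in S phase, when new DNA has to be packed. Their messages usually end without a poly(A) tail, in a short RNA hairpin that the protein SLBP binds, and some also have a longer polyadenylated form. Variant histones are made throughout the cell cycle from ordinary polyadenylated messages and replace cluster histones at chosen places: H2A.Z at promoters, H3.3 at active genes, macroH2A at silent chromatin, and H1.0 in cells that have stopped dividing. A poly(A) library therefore sees variants directly, and sees of the cluster genes only tailed forms or carry-over of untailed RNA.

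The hairpin was looked for in the GENCODE transcripts of GRCm38 (mm10), because it decides which messages a poly(A) protocol can select. The pattern of a stem of 6 base pairs with a loop of 4 bases was present in 40 of the 59 cluster genes with a coding transcript and in 1 of 10 variants, H2afx. In 19 cluster genes it lay within the last 150 bases, as it did in 24 of 21901 coding genes (0.11%). Examples follow, as DNA from 5′ to 3′ with the hairpin in capitals.
Hist1h1c: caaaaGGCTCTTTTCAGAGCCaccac
Hist3h2a: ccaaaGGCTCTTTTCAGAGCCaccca
Hist1h2ac: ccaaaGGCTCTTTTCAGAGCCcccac
Hist2h2ac: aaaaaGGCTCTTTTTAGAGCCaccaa
Hist1h2bb: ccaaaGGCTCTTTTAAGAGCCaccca
Hist1h4b: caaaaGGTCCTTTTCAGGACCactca
H2afx: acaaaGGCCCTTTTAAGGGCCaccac
In Hist2h2ac, Hist1h2bb and Hist1h4b the hairpin ended 57, 23 and 28 bases before the annotated end. In Hist1h1c, Hist3h2a, Hist1h2ac and H2afx the annotated transcript ran on for 840, 1643, 2010 and 822 bases beyond it. A poly(A) signal, AATAAA or ATTAAA on the sense strand within the last 50 bases of a coding transcript, was found in 15 cluster genes and 9 variants, against 77.9% of all coding genes. Of these 15, 12 also held the hairpin. Hist1h2bc, Hist1h2ac and Hist1h4k were without such a signal, as was the variant H2afy. The letters describe the annotation only, so a hairpin or signal beyond the annotated end of a transcript would be missed. How many genes this touches was not checked, and the ends that these cells used were not measured.

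Library totals ran from 13867982 to 24294456 counts, and histone genes took 0.192% to 0.269% of them. Levels are counts scaled to a common library size (CPM), the size being the library total times edgeR's TMM factor. Epithelial markers, 13 of 13 in the table, summed to 7463 to 9571 CPM, with Epcam at 1565 to 2140 CPM. With IL-13 5 of them were higher and 3 lower: the stem cell marker Lgr5 fell by 2.38, the Paneth cell marker Lyz1 by 1.84 and Cdx2 by 0.64, and the tuft cell marker Dclk1 rose by 1.87 (log2; edgeR adjusted p = 3.7e-05, 6e-08, 2.7e-05 and 1.3e-05). With butyrate alone 3 were higher and 2 lower, among them Lgr5 (1.52), Lyz1 (1.32), Chga (-1.59) and Dclk1 (-1.22). For both agents over IL-13 4 were higher and 3 lower, the latter Chga (-2.69), Dclk1 (-2.18) and Muc2 (-1.18). For both agents over butyrate 5 were higher and 5 lower. The part of such shifts in the histone results was not tested. Of 7 immune markers 5 were in the table, summing to 9.68 to 13.1 CPM in the 6 libraries without IL-13 and 12.1 to 17.4 with it, with Ptprc at 0.721 CPM or less in all 12. Of 9 mesenchymal and endothelial markers 8 were in the table, summing to 0.508 to 1.195 CPM without IL-13 and 0.955 to 1.70 with it; their part in the results was not tested. For Lars2, a mitochondrial tRNA ligase gene, the third library given both agents (6980 CPM) and the second given butyrate (5046 CPM) stood apart from the other 10, which ran from 422.7 to 1433 CPM.

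The filter on low counts (filterByExpr) kept 40 members, 31 cluster and 9 variant genes. The other 30 were H1fx, with 44 counts over all libraries, and 29 cluster genes with 1 to 108 counts and a median of 44. The filter asks for enough counts in only some libraries, so a thinly covered gene could be kept through the groups where it was high. Cluster genes were far more thinly covered than variants: the median total over the 12 libraries was 100.5 counts for the 60 cluster genes and 13446 for the 10 variants. Variant genes held 90.2% to 93.6% of the histone CPM in every library. Per kilobase of exon, averaged over all libraries, H1f0 was highest at 476 CPM per kb, followed by H2afj at 197, H3f3b at 154, H2afx at 66.2 and the cluster genes Hist1h2bc at 53.1 and Hist1h1c at 40.5.

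Among the variants, the H2A.Z genes and H2afx were lower with IL-13, with or without butyrate, whereas H1f0 and both H3.3 genes were called in none of the 5 comparisons. A gene was called at an edgeR adjusted p under 0.05 over all 13750 genes tested. For IL-13 over untreated 1 variant of 9 was higher and 4 were lower, where 21.8% of all genes tested were higher and 21.7% lower. Both agents over butyrate gave 0 higher and 3 lower, against 22.9% and 24.9% of all genes. Both agents over IL-13 gave 0 higher and 2 lower, against 9.85% and 11.3%. For butyrate over untreated 0 were higher and 1 lower, against 5.14% and 2.76%. The median log2 fold change of the 9 variants ran from -0.18 with IL-13 to 0.00 for both agents over IL-13, and that of all genes from -0.04 to -0.01. With library totals alone, without TMM factors, the median of all genes moved to -0.18 for IL-13 over untreated and -0.27 for both agents over butyrate, and the variants split into 0 higher and 4 lower, and 0 higher and 5 lower.

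**Figure D1:**
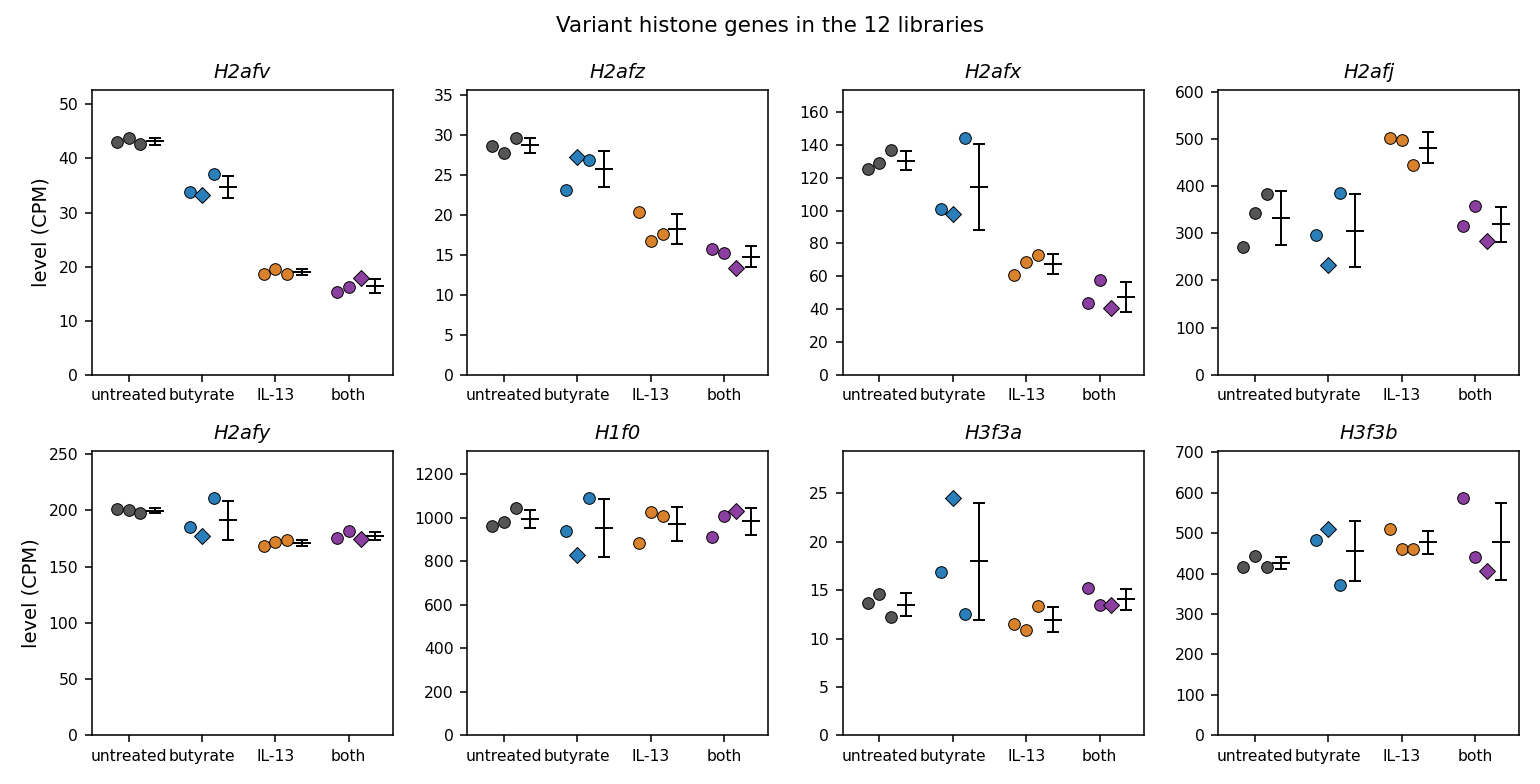
Levels (CPM, linear axes from 0) of 8 variant histone genes in each of the 12 libraries; points are libraries, diamonds the pair highest in Lars2, and the bars the group mean with its SD (n = 3). H2afv, H2afz and H2afx are lower in all 6 libraries given IL-13 than in any of the 6 without it, while H1f0 overlaps between all groups.

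H2afv, which encodes the H2A.Z.2 form of H2A.Z (chr11:6427226-6444443, minus strand), had the smallest p of the variants with IL-13. Its level was 42.95, 43.9 and 42.7 CPM in untreated enteroids, 33.9, 33.3 and 37.1 with butyrate, 18.6, 19.6 and 18.7 with IL-13, and 15.3, 16.2 and 17.8 with both. Every library with IL-13 was below every library without it, and the butyrate libraries lay below the untreated ones. H2afv fell by 1.19 on the log2 scale with IL-13 (SE 0.10, edgeR adjusted p = 2.2e-08) and by 1.08 when IL-13 was added to butyrate (SE 0.10, edgeR adjusted p = 7.6e-08). With butyrate alone it fell by 0.31 (SE 0.09, edgeR adjusted p = 0.044), a call that 14 of 21 alternatives ended (0.015 to 0.16). These included leaving out any untreated library, butyrate replicate 1 or 2, or both libraries highest in Lars2.

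H2afz encodes the other form of H2A.Z, H2A.Z.1 (chr3:137864487-137866922, plus strand). It stood at 28.7, 27.8 and 29.7 CPM untreated, 23.2, 27.2 and 26.9 with butyrate, 20.4, 16.8 and 17.6 with IL-13, and 15.8, 15.2 and 13.4 with both. The groups did not overlap in any of the 4 pairwise comparisons. It fell by 0.65 with IL-13 (SE 0.11, edgeR adjusted p = 0.00015) and by 0.80 for both agents over butyrate (SE 0.12, edgeR adjusted p = 2e-05). For both agents over IL-13 the log2 fold change was -0.30 (SE 0.12) and did not pass (edgeR adjusted p = 0.082); it passed at 0.017 with library totals alone.

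H2afx encodes H2A.X, the H2A that is phosphorylated around DNA breaks, and is the variant with the hairpin shown above (chr9:44334715-44336071, plus strand). It measured 125.4, 128.9 and 136.6 CPM untreated, 100.9, 97.7 and 144.4 with butyrate, 61.0, 68.8 and 72.7 with IL-13, and 44.0, 57.6 and 40.7 with both. Each group given IL-13 lay below both groups without it, and the group given both lay below IL-13 alone. H2afx fell by 0.95 with IL-13 (SE 0.14, edgeR adjusted p = 2.3e-05) and by 1.27 for both agents over butyrate (SE 0.14, edgeR adjusted p = 8.1e-07). The fall of 0.51 for both agents over IL-13 (SE 0.14, edgeR adjusted p = 0.016) lost its call on leaving out IL-13 replicate 2, IL-13 replicate 3, or replicate 1 or 3 with both agents (0.0015 to 0.11 over all alternatives).

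H2afj encodes H2A.J, an H2A with a distinct tail (chr6:136808248-136810074, plus strand), and was the variant that was higher with IL-13. Its level was 270.0, 343.7 and 383.0 CPM untreated, 297.2, 232.3 and 386.0 with butyrate, 502.7, 496.8 and 443.7 with IL-13, and 316.3, 357.6 and 283.9 with both. The IL-13 libraries were the 3 highest of the 12, and the libraries with both agents were back within the range of those without IL-13. H2afj rose by 0.53 with IL-13 (SE 0.15, edgeR adjusted p = 0.0073), which did not pass with library totals alone (0.055). It fell by 0.59 for both agents over IL-13 (SE 0.15, edgeR adjusted p = 0.0086), which did not pass without butyrate + IL-13 replicate 3 (0.058). The interaction, the difference between the effect of IL-13 with butyrate and that without it, was -0.47 (SE 0.21, edgeR adjusted p = 0.43).

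H2afy encodes macroH2A1 (chr13:56073619-56136361, minus strand). It measured 201.4, 200.5 and 197.5 CPM untreated, 185.1, 177.5 and 210.9 with butyrate, 168.4, 171.7 and 173.4 with IL-13, and 175.3, 181.2 and 174.4 with both. The IL-13 libraries lay below the untreated ones, and H2afy fell by 0.22 (SE 0.08, edgeR adjusted p = 0.024), a small difference whose call was lost without any single untreated library or without IL-13 replicate 1 or 2 (0.00035 to 0.07 over all alternatives). H2afy2, for macroH2A2, was near the limit of detection, at 0.14 to 1.02 CPM (112 counts in all).

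H1f0 encodes H1.0, the linker histone of cells that have left the cycle, and is known from other cells as a gene that histone deacetylase inhibitors raise (chr15:79028212-79030498, plus strand). It carried 37.6% to 46.9% of all histone CPM. Its level was 961, 982 and 1042 CPM untreated, 939, 828 and 1090 with butyrate, 882, 1026 and 1008 with IL-13, and 911, 1008 and 1030 with both. All 4 groups overlapped. The log2 fold change was -0.06 with butyrate (SE 0.10, edgeR adjusted p = 0.77) and -0.03 with IL-13 (SE 0.10, edgeR adjusted p = 0.80), so changes were small next to the spread of the butyrate libraries (952.5 ± 131.6 CPM, SD, n = 3).

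The H3.3 genes encode the same protein. H3f3b (chr11:116021912-116027962, minus strand) measured 417.3, 443.7 and 417.1 CPM untreated, 483.9, 510.7 and 372.3 with butyrate, 509.5, 460.3 and 460.9 with IL-13, and 586.5, 441.4 and 406.7 with both. Its IL-13 libraries lay above the untreated ones, but at 0.16 (SE 0.12) it did not pass (edgeR adjusted p = 0.30). H3f3a (chr1:180800832-180813943, minus strand) was far lower, between 10.9 and 24.5 CPM, with its highest value in butyrate replicate 2. With butyrate it gave 0.41 (SE 0.18, edgeR adjusted p = 0.19), and it was called higher, at 0.61 (0.016), without butyrate replicate 3. The summed variant level was 2169 ± 101.3 CPM untreated and 2051 ± 60.9 with both agents (SD, n = 3), and the 3 libraries with both lay below the 3 with IL-13 alone, at 0.924 times their mean.

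Few cluster genes were called with IL-13 alone and more for both agents over butyrate, where the share called lower was near that of all genes. The abundant Hist1h1c and Hist3h2a were higher with IL-13 in both comparisons, and the genes called lower were thinly covered. For IL-13 over untreated 2 of the 31 tested were higher and 2 lower; for both agents over butyrate 3 were higher and 8 lower. For both agents over IL-13 0 were higher and 1 lower, and for butyrate over untreated 0 were called in edgeR, with 3 at an unadjusted p under 0.05 and 0 in DESeq2. The shares called lower, 6.45% with IL-13 and 25.8% for both agents over butyrate, are below and close to the 21.7% and 24.9% of all genes given above. The median log2 fold change of the 31 was -0.61 with IL-13 (23 below 0, 8 above) and 0.42 with butyrate (7 below, 24 above). It was -0.02 for both agents over IL-13 and -1.01 for both agents over butyrate (24 below, 7 above). Of all genes, 7215 were below 0 and 6531 above with butyrate. Butyrate replicate 2 was the highest of its 3 libraries in 43 of 58 cluster genes. That library enters the medians with butyrate and for both agents over butyrate, and its part in them was not tested. With library totals alone the 11 calls for both agents over butyrate were 0 higher and 11 lower. Of all genes tested, 0.255% were called higher and 0.611% lower in the interaction; edgeR called 0 of 31 cluster and 0 of 9 variant genes there, with 1 of each at an unadjusted p under 0.05, and DESeq2 called 0 of the 26 cluster and 9 variant genes it gave an adjusted p.

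**Figure D2:**
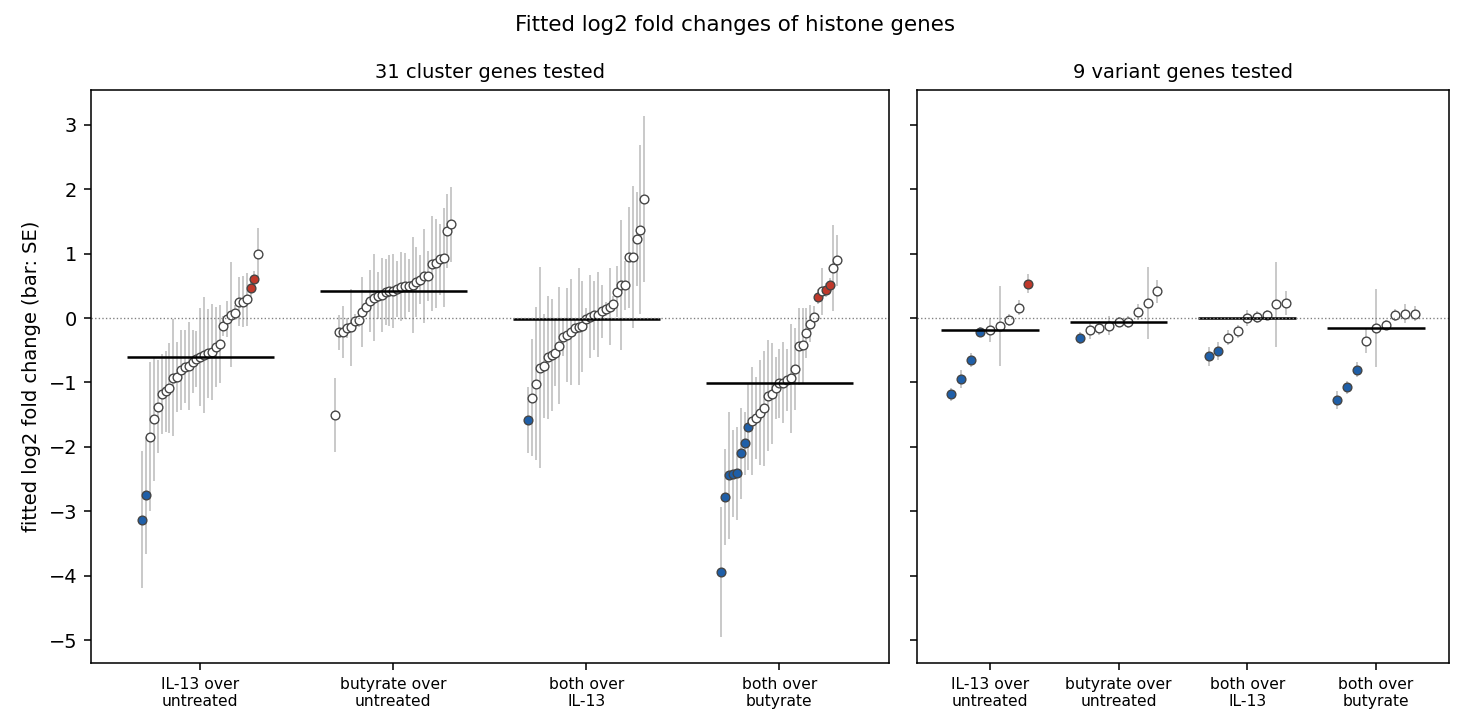
Fitted log2 fold changes of the 31 cluster (left) and 9 variant genes tested (right) in 4 comparisons; each point is a gene with its SE, filled red where called higher and blue where called lower, and the black line is the median. Cluster genes spread from -3.94 to 1.84 with wide errors, with their lowest median, -1.01, for both agents over butyrate.

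The H1 genes were led by Hist1h1c, for H1.2 (chr13:23738807-23740366, plus strand), the cluster gene with most counts (12843). Its level was 55.0, 47.8 and 48.2 CPM untreated, 55.4, 49.4 and 64.9 with butyrate, 70.0, 66.5 and 71.5 with IL-13, and 67.4, 72.5 and 88.8 with both. The 6 libraries with IL-13 were the 6 highest. Hist1h1c rose by 0.46 with IL-13 (SE 0.11, edgeR adjusted p = 0.003) and by 0.43 for both agents over butyrate (SE 0.11, edgeR adjusted p = 0.0042); the second did not pass with library totals alone or without both libraries highest in Lars2 (0.12 at most). Hist1h1b, for H1.5 (chr13:21779883-21780625, minus strand), went the other way, from 6, 38 and 26 counts in untreated libraries to 0, 4 and 1 with IL-13. Its count ratio was 0.110 (95% interval 0.0347 to 0.270, counting error only), with edgeR adjusted p = 0.024; the groups overlapped, and the call was lost without untreated replicate 2 or 3 or IL-13 replicate 1 or 3. Hist1h1e, for H1.4, measured 1.89, 2.84 and 4.21 CPM untreated, 2.35, 6.60 and 1.70 with butyrate, 1.59, 1.51 and 1.57 with IL-13, and 0.474, 1.19 and 3.51 with both. Hist1h1d, for H1.3, measured 1.72, 1.58 and 4.43 CPM untreated, 3.44, 5.25 and 1.59 with butyrate, 1.153, 0.892 and 2.65 with IL-13, and 1.19, 1.83 and 1.83 with both. Neither was called. The Hist1h1e libraries with IL-13 were even and all below the untreated ones, at a log2 fold change of -0.92 (SE 0.54, edgeR adjusted p = 0.18), which passed with only the groups compared (0.019) and without both libraries highest in Lars2 (0.032). For both agents over butyrate Hist1h1e passed without butyrate + IL-13 replicate 3 (-2.05, 0.013). Summed over the 5 H1 genes, the IL-13 level was 1.27 times the untreated one. Hist1h1e overlaps Hist1h2be on the same strand, so reads of the 2 genes may not be told apart.

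Hist3h2a led the H2A genes and lies outside the large clusters (chr11:58954685-58956674, plus strand). It measured 21.4, 24.5 and 21.6 CPM untreated, 20.0, 22.2 and 23.1 with butyrate, 34.8, 35.7 and 32.5 with IL-13, and 32.2, 25.6 and 34.7 with both. All libraries with IL-13 were above all those without it. Hist3h2a rose by 0.61 with IL-13 (SE 0.12, edgeR adjusted p = 0.00039), the call with the smallest p among cluster genes. For both agents over butyrate it rose by 0.51 (SE 0.12, edgeR adjusted p = 0.0018; 0.053 with library totals alone). It shares its strand with exons of Trim17, and how such overlaps were counted is not stated.

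Hist1h2ac (chr13:23681467-23683948, minus strand) was the cluster gene lower with both agents than with either alone. It stood at 1.14, 0.608 and 0.942 CPM untreated, 0.938, 1.98 and 1.36 with butyrate, 1.44, 0.824 and 1.02 with IL-13, and 0.395, 0.398 and 0.292 with both. The 3 libraries with both agents were the 3 lowest of the 12. It fell by 1.58 for both agents over IL-13 (SE 0.51, edgeR adjusted p = 0.035; lost in 7 of 20 alternatives, up to 0.13) and by 1.95 for both agents over butyrate (SE 0.48, edgeR adjusted p = 0.0029; 0.056 without both libraries highest in Lars2). Its interaction, -2.24 (SE 0.64), did not pass (edgeR adjusted p = 0.14). The first of these calls was lost without any single library with both agents, without IL-13 replicate 1 or 3, without both libraries highest in Lars2, and with the replicate block.

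The bases before Hist1h2ac are shown because the span of Hist1h2bc begins within them, near their far edge, on the plus strand. The values of Hist1h2bc did not follow those of Hist1h2ac. Hist1h2bc had no RefSeq promoter here, so its own was not examined. From RefSeq (GRCm38.p6), the 250 bases before the start at chr13:23683960-23684209 read as follows on the minus strand, with ATGCAAAT, CCAAT or its reverse ATTGG, and TATAAA in capitals.
Hist1h2ac: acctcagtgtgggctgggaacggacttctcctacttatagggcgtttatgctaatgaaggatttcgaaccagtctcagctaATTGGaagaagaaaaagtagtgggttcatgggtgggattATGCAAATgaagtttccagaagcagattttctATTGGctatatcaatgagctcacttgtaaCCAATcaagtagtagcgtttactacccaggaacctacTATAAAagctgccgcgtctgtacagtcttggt
ATGCAAAT is the octamer that POU factors bind. On either strand and within 250 bases before to 50 after a start, it was in 6 of 15 H2A and 6 of 14 H2B cluster genes with a RefSeq promoter and in 0 of 5 H1, 0 of 10 H3 and 0 of 11 H4, against 1.97% of 27025 symbols. Of the variants it was in 1 of 2 H3 genes, H3f3b, and in 0 of 5 H2A and 0 of 2 H1. CCAAT on either strand was in 47 of 55 cluster genes and 6 of 9 variants, against 41.1% of symbols, and TATAAA on the sense strand in 27 of 55 and 1 of 9, against 9.77%. A match is a description of the letters only.

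Other H2A genes had few reads. Hist2h2ac (chr3:96220361-96220880, minus strand) had 13, 18 and 13 counts in untreated libraries, 15, 34 and 6 with butyrate, 0, 1 and 3 with IL-13, and 0, 0 and 2 with both. Every library with IL-13 had fewer than every library without it. Hist2h2ac therefore passed the filter only through the groups where it was high, and its calls are not independent of that choice. The count ratio was 0.140 for IL-13 over untreated (95% interval 0.0366 to 0.385; edgeR adjusted p = 0.02, lost without IL-13 replicate 1 or 2) and 0.0584 for both agents over butyrate (0.00690 to 0.221; edgeR adjusted p = 0.0035, kept in all 19 alternatives that tested it). Hist1h2af (chr13:23533906-23534304, plus strand) measured 0.630, 0.729 and 1.16 CPM untreated, 1.06, 1.77 and 0.453 with butyrate, 0.505, 0.549 and 0.068 with IL-13, and 0.079, 0.080 and 0.292 with both. It fell by 2.78 for both agents over butyrate (SE 0.75, edgeR adjusted p = 0.005), kept in all 19 alternatives that tested it. Hist1h2ak fell by 2.44 in the same comparison (edgeR adjusted p = 0.049), which 11 of 19 alternatives ended.

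Many of these genes are near copies. In 27 of the 70 members at least 50% of the 50-base words of their transcripts occur in another gene, including Hist1h2af (79.7%), Hist1h2ak (52.3%), Hist1h3e (73.4%) and Hist1h4k (71.5%), so their counts depend on how shared reads were assigned, which is not stated. For Hist2h2ac the share was 38.6%, for Hist1h2bc 30.1%, for Hist1h2ac 14.1% and for Hist1h1c 8.5%. Hist1h2ac, Hist2h2ac, Hist1h2af, Hist1h2ak and Hist3h2a also have an annotated gene on the opposite strand, and without knowing whether the counts used strand the partners cannot be told apart.

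The H2B genes were led by Hist1h2bc (chr13:23684199-23692488, plus strand). It measured 38.2, 35.1 and 36.6 CPM untreated, 35.2, 33.4 and 39.4 with butyrate, 31.4, 42.4 and 42.1 with IL-13, and 41.3, 44.3 and 49.6 with both. The libraries with both agents lay above those with butyrate alone and above the untreated ones, and the other groups overlapped. Hist1h2bc rose by 0.33 for both agents over butyrate (SE 0.12, edgeR adjusted p = 0.028). That call was lost in 5 of 21 alternatives, among them library totals alone (0.49 at most) and leaving out butyrate replicate 1 or 2, butyrate + IL-13 replicate 3, or both libraries highest in Lars2. Hist2h2be, on chromosome 3, ranged from 7.27 to 10.1 CPM over all 12 libraries and was called in no comparison, as was Hist1h2be, from 0.793 to 3.898 CPM. Hist1h2bb measured 0.252, 0.486 and 0.443 CPM untreated, 0.626, 1.82 and 0.623 with butyrate, 0.144, 0.549 and 0.068 with IL-13, and 0.079, 0.319 and 0.292 with both. The libraries with both overlapped the untreated ones, and the butyrate libraries lay above these. It fell by 2.10 for both agents over butyrate (SE 0.71, edgeR adjusted p = 0.021). That call was lost without butyrate replicate 2, butyrate + IL-13 replicate 1 or both libraries highest in Lars2.

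The H3 and H4 genes were all below 6 CPM. Hist2h3c1, the highest H3 gene, lay between 0.824 and 2.45 CPM and was not called, but shares all its words with another gene. Hist1h3d, from 0.136 to 2.34 CPM, was not called either. Hist1h3e measured 0.252, 0.5265 and 0.776 CPM untreated, 0.587, 2.86 and 0.793 with butyrate, 0.216, 0.412 and 0.408 with IL-13, and 0.237, 0.080 and 0.439 with both. The libraries with both overlapped the untreated ones. It fell by 2.41 for both agents over butyrate (SE 0.72, edgeR adjusted p = 0.01). The call was lost without butyrate replicate 2, where the log2 fold change was -1.39 (0.12), and without both libraries highest in Lars2 (-2.05, 0.068). Hist1h4i, the highest H4 gene, ran from 2.34 to 5.04 CPM and was not called. Hist1h4k (chr13:21750194-21750505, minus strand) measured 0.841, 1.34 and 1.99 CPM untreated, 1.96, 2.86 and 0.962 with butyrate, 0.721, 0.206 and 0.885 with IL-13, and 0.237, 0 and 0.804 with both. It fell by 2.41 for both agents over butyrate (SE 0.67, edgeR adjusted p = 0.0065), kept in all 20 alternatives that tested it, and Hist1h4b fell by 1.68 (edgeR adjusted p = 0.046), which 12 of 19 alternatives ended. Hist1h4d, at 0.398 to 3.95 CPM, gave -1.55 (SE 0.64, edgeR adjusted p = 0.053).

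Hist1h4h (chr13:23531044-23531519, plus strand) had the highest fold change of the cluster genes with IL-13 without passing the test. It measured 1.09, 1.22 and 0.997 CPM untreated, 1.10, 2.91 and 0.736 with butyrate, 2.02, 2.27 and 2.31 with IL-13, and 2.06, 3.50 and 3.22 with both. The IL-13 libraries lay above the untreated ones, with a log2 fold change of 0.99 (SE 0.41, edgeR adjusted p = 0.059). It was called higher without both libraries highest in Lars2, at 0.019 for IL-13 over untreated and 0.0046 for both agents over butyrate, and in other alternatives. In butyrate replicate 2 it was more than 2 times as high as in the other butyrate libraries.

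**Figure D3:**
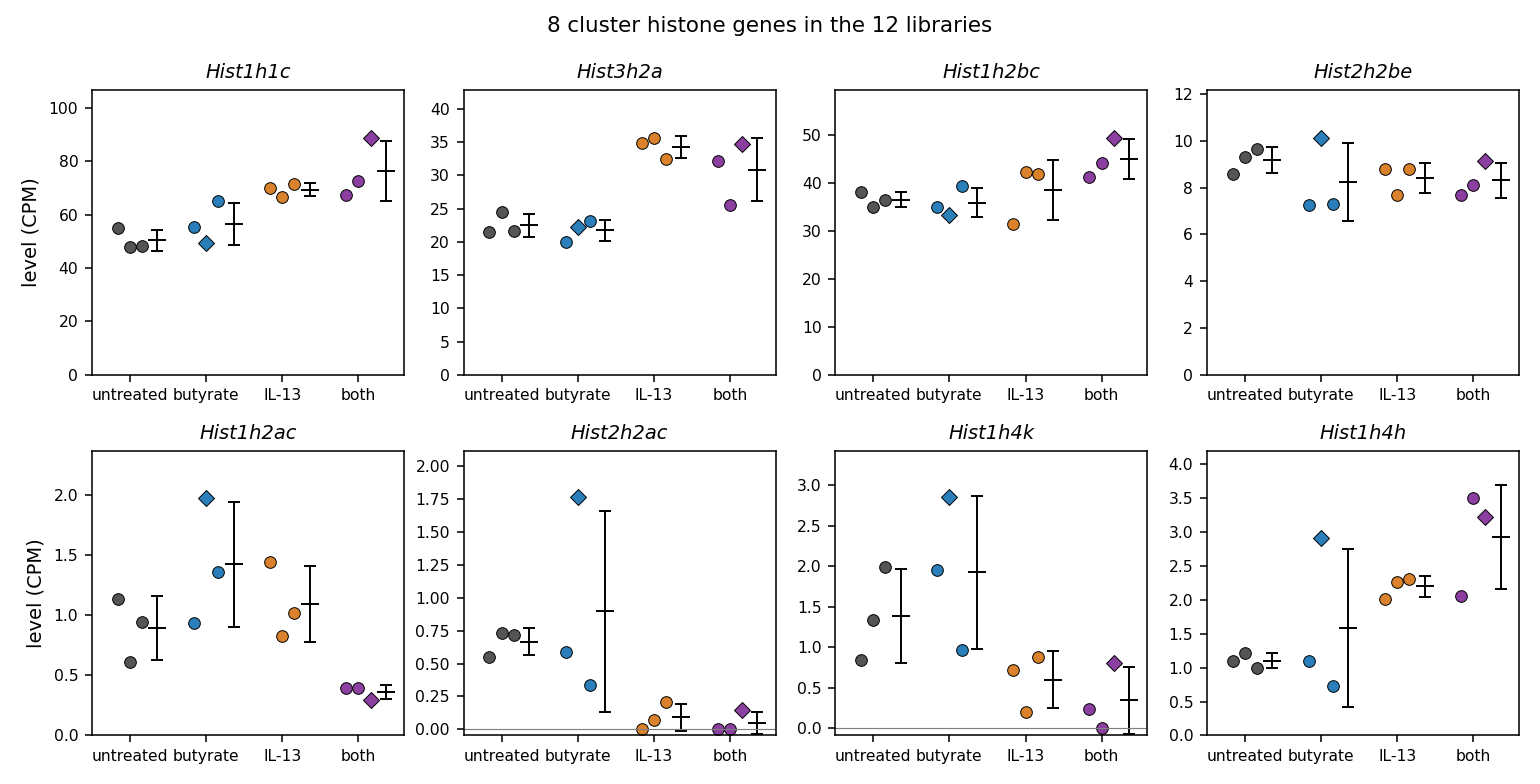
Levels (CPM) of the 4 cluster genes with most counts (top row) and 4 others (bottom row) in the 12 libraries; points are libraries, diamonds the pair highest in Lars2, and bars the group mean with its SD (n = 3), which reaches below 0 for 2 thinly covered genes. Hist1h1c and Hist3h2a are higher in the 6 libraries with IL-13, Hist2h2ac is lower in them, and Hist1h2ac is lowest in the 3 libraries with both agents.

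The cluster genes were also divided by the annotated poly(A) signal, a division made after the values were seen and given as a description, with no test of the difference. Of the 10 tested cluster genes with a signal, 2 were higher and 0 lower with IL-13, and likewise 2 and 0 for both agents over butyrate, with medians of 0.12 and -0.03 in log2. Of the 20 without one, 0 were higher and 2 lower with IL-13 (median -0.78), and 1 was higher and 8 lower for both agents over butyrate (median -1.51). With IL-13 these shares are at or below the 21.8% higher and 21.7% lower of all genes, and nothing is read from them about the members. For both agents over butyrate 22.9% of all genes were higher and 24.9% lower. The 8 lower of 20 without a signal are a larger share than that, and the 0 lower of 10 with one a smaller share. This difference was not tested, and the filter on low counts enters it. A gene near that limit could be tested only through groups where it was high, which favours a lower call. Hist2h2ac, for one, had 15, 34 and 6 counts with butyrate and 0, 0 and 2 with both. The part of the filter was not tested. The remaining gene, Hist2h2bb, has no coding transcript in the annotation and was not called. Level moved with the division: the median mean level was 2.15 CPM with a signal and 0.667 CPM without, and the part of level was not tested.

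Summed over the 15 genes with a signal, tested or not, the level was 96.4, 92.1 and 92.2 CPM untreated, 94.8, 98.0 and 106.5 with butyrate, 125.0, 122.1 and 126.3 with IL-13, and 119.3, 119.9 and 146.3 with both. All libraries with IL-13 were above all those without, at 1.33 times the untreated mean and 1.29 times the butyrate mean. Over the 43 genes without a signal, leaving out Hist1h2bc, which alone held more than these together in every library but butyrate replicate 2, the sum was 15.8, 22.0 and 35.1 CPM untreated, 23.2, 63.5 and 18.3 with butyrate, 10.9, 13.2 and 14.7 with IL-13, and 6.48, 10.6 and 19.2 with both. The IL-13 libraries were below the untreated ones, at 0.532 times their mean, and the libraries with both agents overlapped those with butyrate. Over all 60 cluster genes the mean sum was 155.4 ± 8.16 CPM untreated, 172.0 ± 22.4 with butyrate, 176.7 ± 8.20 with IL-13 and 186.2 ± 26.2 with both (SD, n = 3). The IL-13 libraries lay above the untreated ones, and the other comparisons overlapped.

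**Figure D4:**
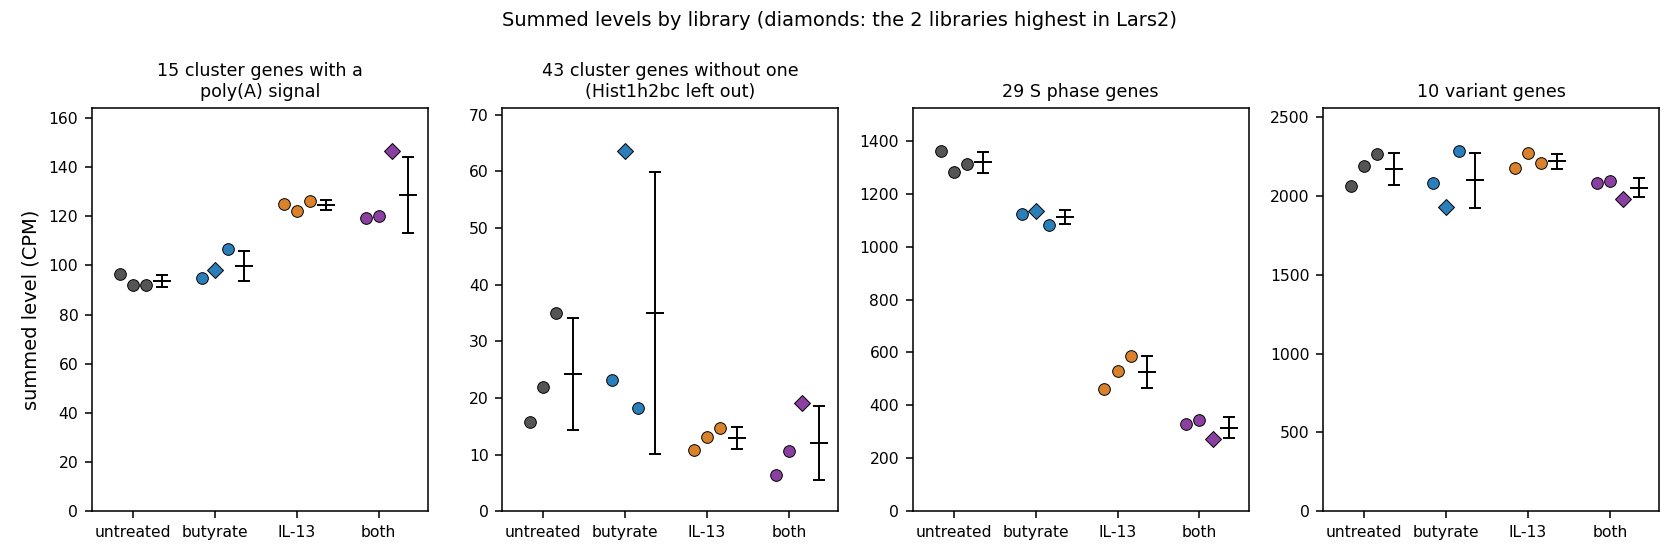
Summed levels (CPM, axes from 0) in each library of 15 cluster genes with an annotated poly(A) signal, 43 without one, the 29 S phase genes and the 10 variants; points are libraries, diamonds the pair highest in Lars2, and bars the mean with its SD (n = 3). The first sum is higher in the 6 libraries with IL-13, the S phase sum is lower in them, and butyrate replicate 2 stands far above the other libraries in the second.

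Single libraries weighed on the thinly covered genes. Butyrate replicate 2, one of the pair highest in Lars2, was the highest of its 3 libraries in 43 of 58 cluster genes with a count there (74.1%), against 36.4% of all genes tested. Untreated replicate 3 was the highest of its 3 in 36 of 59 (61.0%, against 33.0%). Butyrate + IL-13 replicate 3, the other Lars2-high library, was highest in 27 of 56 (48.2%, against 32.2%). Without both Lars2-high libraries 6 cluster genes were called for both agents over butyrate, 2 higher and 4 lower, in place of 3 and 8, and 6 with IL-13, 3 higher and 3 lower. Without butyrate replicate 2 alone the first count was 7, 3 higher and 4 lower.

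S phase genes gave the backdrop. All 29 in a list of replication genes were lower with IL-13 and for both agents over butyrate, 20 of 29 for both agents over IL-13 and 0 for butyrate alone. Their sum was 1359, 1282 and 1313 CPM untreated, 1121, 1134 and 1081 with butyrate, 463.2, 528.9 and 585.0 with IL-13, and 331.4, 346.1 and 271.7 with both, with no overlap between any pair of groups. In bulk RNA fewer cells in S phase and less RNA per cell cannot be told apart. Mcm2, a subunit of the replicative helicase, fell by 1.46 with IL-13 (edgeR adjusted p = 1.9e-08) and by 1.40 for both agents over IL-13 (edgeR adjusted p = 1.5e-06); Rrm1, Mcm6 and Ccna2 also fell in both. Mki67, a marker of cycling cells, fell by 1.26 with IL-13 and Cdkn1a, the cycle inhibitor p21, rose by 1.66 (edgeR adjusted p = 6.7e-07 and 8.4e-12). Cluster histone CPM as a percentage of S phase CPM lay between 11.1% and 12.6% in untreated libraries, between 13.7% and 17.4% under butyrate, between 31.5% and 36.2% under IL-13, and between 50.4% and 79.6% under both. The 4 genes Hist1h1c, Hist1h2bc, Hist3h2a and Hist2h2be hold 58.4% to 88.9% of the cluster sum. For the 43 genes without a poly(A) signal, Hist1h2bc left out, the percentage was 1.85 ± 0.764 untreated, 3.12 ± 2.16 with butyrate, 2.45 ± 0.0884 with IL-13 and 4.02 ± 2.68 with both (SD, n = 3), and the groups overlapped.

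Genes listed for histone mRNA processing fell in part. Of the 15, 0 were higher and 8 lower with IL-13, and 7 were not called. For both agents over butyrate 0 were higher and 10 lower, for both agents over IL-13 0 and 3, and with butyrate alone 0 and 0. The shares lower were 53.3% with IL-13, 66.7% for both agents over butyrate and 20% for both agents over IL-13. Of all genes 21.7%, 24.9% and 11.3% were lower there. Slbp, the hairpin-binding protein, measured 26.2, 23.8 and 24.0 CPM untreated, 19.4, 24.1 and 15.6 with butyrate, 15.9, 16.3 and 18.7 with IL-13, and 14.4, 11.3 and 12.5 with both. It fell by 0.54 with IL-13 (SE 0.14, edgeR adjusted p = 0.0053) and by 0.63 for both agents over butyrate (SE 0.15, edgeR adjusted p = 0.0021). Ncbp2, a subunit of the cap-binding complex, fell by 0.97 with IL-13 (edgeR adjusted p = 2.7e-06), and Srrt, Casp8ap2 and Cstf2 fell as well.

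Of 23 genes listed for histone chaperones and assembly, which include the histone gene Cenpa, 1 was higher and 14 lower with IL-13. The other 8 were not called. For both agents over butyrate 1 was higher and 13 lower, for both agents over IL-13 0 and 6, and with butyrate alone 0 and 0. The shares lower were 60.9% with IL-13, 56.5% for both agents over butyrate and 26.1% for both agents over IL-13. Of all genes 21.7%, 24.9% and 11.3% were lower there. Chaf1a, the large subunit of the CAF-1 complex that places new H3 and H4 behind the replication fork, fell by 1.45 with IL-13 (edgeR adjusted p = 3.8e-09) and by a further 1.08 for both agents over IL-13 (edgeR adjusted p = 5.4e-06). Its interaction, -0.78, was the 1 call of these genes there (edgeR adjusted p = 0.018). Asf1b and Nap1l1, which carry H3-H4 and H2A-H2B, fell by 1.69 and 1.66 with IL-13. Cenpa, the centromere's own H3, measured 55.3, 55.3 and 66.1 CPM untreated, 47.8, 49.4 and 49.3 with butyrate, 18.0, 23.7 and 26.7 with IL-13, and 17.6, 17.6 and 16.2 with both, and fell by 1.37 with IL-13 (SE 0.12, edgeR adjusted p = 6.4e-08).

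Of 16 RNAs listed as a check on carry-over of untailed RNA, Lars2 included, only Malat1, Neat1 and Lars2 were in the table, and the others are not analysed here. Malat1, a nuclear RNA without a regular tail, measured 506.0, 682.3 and 730.1 CPM untreated, 1043, 1307 and 768.9 with butyrate, 1281, 1199 and 1159 with IL-13, and 1369, 1234 and 2194 with both. It rose by 0.92 with IL-13 (SE 0.19, edgeR adjusted p = 0.00084) and by 0.70 with butyrate (SE 0.19, edgeR adjusted p = 0.031). Malat1 was highest of its 3 libraries in the same pair that was highest in Lars2, whereas Neat1 was lowest of its 3 in that pair. Neat1 measured 3688, 3289 and 3917 CPM with butyrate and 5814, 4746 and 3726 with both. It rose by 0.82 with IL-13 (SE 0.14, edgeR adjusted p = 0.00013) and was not called with butyrate (edgeR adjusted p = 0.36). The part of such RNA in the cluster gene counts was not tested.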

How the data were processed

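The deposited table held whole-number read counts per gene that the authors had not normalised, from 12 poly(A) libraries in 4 groups of 3; per the submitters' processing notes the genome was mm10, and the sources used here name no aligner, counter or strand setting. Per the file headers, the table keeps only genes whose corrected p for untreated against IL-13 was below 1. That limit also enters the shares given for all genes. The 18092 rows gave 18068 genes after summing 23 symbols with several rows. edgeR 4.0.16 (R 4.3.3; TMM, filterByExpr, robust quasi-likelihood test, 1 coefficient per group, no replicate block) tested 13750 genes and 5 comparisons, with Benjamini-Hochberg adjustment over all genes; the fit had 8 residual degrees of freedom and a common biological variation of 10.2%. Each SE is the absolute log2 fold change divided by the square root of the F statistic of that test. It is not a separate estimate and is unsure for thinly covered genes. The test was tried on simulated data. Transcripts came from GENCODE (GRCm38) and promoters from RefSeq (GRCm38.p6), with 64 of 70 members matched. Count ratios have exact 95% binomial intervals that cover counting error only. No replicate pair matched within sampling noise.

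Members and lists were chosen with earlier results of these data known. Named were all tested variants, the 3 cluster genes of highest level in each family, up to 6 called members per comparison and direction, 4 genes of each pathway list and Lars2, Malat1, Cenpa, Slbp, Mki67 and Cdkn1a; Hist2h2bb and the poly(A) division were chosen after values were seen. Alternatives were RLE scaling, library totals alone, DESeq2 1.42.0, no filter, a mean of at least 50 counts, only the groups compared, a replicate block, thinning to the lowest total, and libraries left out. Tables and plots used Python 3.11.15, pandas 2.3.3, scipy 1.17.1 and matplotlib 3.10.9.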

Additional observations from a re-analysis of the deposited data

How the results depend on the processing

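All 27 called log2 fold changes kept their sign in the alternatives that tested them, 11 kept their call in all of these, and the calls of the others were lost in 1 to 14 alternatives. Where a count changed, the cause was not tested, except that fewer genes were tested at a mean of at least 50 counts: only 5 cluster genes, of which 2 were called with IL-13, 0 for both agents over IL-13 and 3 for both agents over butyrate. In that last comparison 7 cluster genes were called with only the groups compared and 6 without both libraries highest in Lars2. For both agents over IL-13 that same omission gave 0 cluster calls. The 1 variant call with butyrate became 0 without a filter, after thinning, with only the groups compared and without both libraries highest in Lars2. With library totals alone the variant calls were 4 (both agents over IL-13) and 5 (both agents over butyrate).

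Same-numbered libraries did not deviate together more than others (correlations -0.151 to 0.0965, against -0.215 to 0.168 for libraries of different number). No pairing by number was seen, but this does not settle whether the numbers mark a shared culture or animal. With the replicate block the cluster counts were 5 with IL-13, 0 with butyrate, 0 for both agents over IL-13 and 12 for both agents over butyrate, and the variant counts 5, 0, 2 and 3.

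Leaving out single libraries gave 3 to 5 cluster calls with IL-13, 0 to 1 with butyrate, 0 to 1 for both agents over IL-13, 7 to 14 for both agents over butyrate and 0 in the interaction. Variant calls ranged from 4 to 5, 0 to 3, 0 to 2 and 3 to 4, with 0 in the interaction.

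The summed cluster level for IL-13 over untreated, 1.1372, was 1.0122 with library totals alone and 1.0219 without Hist1h1c. Restricted after seeing the data, it was 1.3305 for genes with a poly(A) signal, 0.8464 for those without and 0.5319 for those without when Hist1h2bc was left out. The last restriction gave 1.4404 for butyrate over untreated and 0.3452 for both agents over butyrate, the latter 0.8052 with Hist1h2bc kept. The first rests on butyrate replicate 2: without both libraries highest in Lars2 it was 0.853. The summed variant level with library totals alone was 0.9101 for IL-13 over untreated, 0.8476 for both agents over IL-13 and 0.8345 for both agents over butyrate; without H1f0 the second was 0.8564. Low counts limit the cluster genes: 30 of 60 had under 100 counts in all. The alternative without testis genes was not run, since none was in the table.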
